A study of Homo sapiens with 25 samples.

Results

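The genes described here are 10 members of the BCL2 family: BCL2L1, BCL2L2, MCL1, BAK1, BOK, BID, BAD, BIK, BMF and BCL2L11. They were taken by name from 59427 gene names in the deposited table, and all 10 were listed. They are family members that are not usually counted among the direct targets of p53, so BAX, BBC3 and PMAIP1 were left aside. The list does not hold the rest of the family, and BCL2 and BCL2A1, for example, lie outside it. The labels name no treatment aimed at p53, so control by p53 cannot be tested here. Only the choice of genes rests on it. RNA came from A549, an established lung adenocarcinoma line, and NCI-H460, an established large cell lung carcinoma line, harvested 24 h after transfection of 25 nM antisense oligonucleotide (ASO). An ASO is a short modified strand that pairs with an RNA and leads to its cleavage. Each line had 5 groups: the Qiagen neutral control ASO Control A, ASO3 and ASO5 against the long noncoding RNA called candidate 42 (CHiLL1), and ASO1 and ASO3 against the long noncoding RNA called candidate 240 (CHiLL2). A549 groups had n = 3 libraries, numbered 3, 4 and 5, and NCI-H460 groups had n = 2, numbered 1 and 2. All groups were transfected, the control groups included, and untransfected cells were not analysed here.

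BCL2 family proteins decide whether the outer mitochondrial membrane opens and cytochrome c escapes to switch on caspases. The guardians BCL-XL (from BCL2L1), BCL-W (from BCL2L2) and MCL-1 hold the pore formers BAK and BAX in check. The BH3-only proteins BID, BAD, BIK, BMF and BIM (from BCL2L11) carry the death signal: they bind guardians, and BID and BIM can also activate the pore formers. Lung cancer cells commonly depend on BCL-XL and MCL-1 to survive. Many family members are also controlled after transcription, MCL-1 by rapid protein turnover, BAD by phosphorylation and BID by cleavage, and transcript levels show none of that.

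Values are TPM (a transcript's level per unit of its length), as rescaled by the authors. Their sums ran from 924350 to 1179224 per library, so they keep no record of read number and the depth is unknown. The labels do not say whether the libraries of a group came from separate cultures, so p-values measure only the spread between these libraries. All 10 members passed the filter of a mean of 1 TPM in A549, among 14740 genes tested. In NCI-H460 8 members passed, among 13774 genes, while BIK and BMF lay below the filter. Differences are on the log2(TPM + 0.5) scale, which understates changes of low genes such as BIK and BMF, and a member was called at an adjusted p under 0.05 (limma, Benjamini-Hochberg over all genes of a comparison).

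Some libraries stood apart. A principal component analysis of A549 gave component 1 24.6% of the variance, and on it all 5 libraries numbered 3 lay at 3.55 to 71.9, with candidate 240 ASO3 replicate 3 farthest out. Replicates 4 and 5 of 240 ASO3 lay within that range, at 10.5 and 11.7, and the other 8 A549 libraries at -25.5 to -5.46. In NCI-H460 the 2 candidate 42 ASO3 libraries lay at -72.2 and -38.7 on component 1 (48.2%), against -3.06 to 28.5 for the other 8. AC107959.3, taken here as candidate 42 although the labels do not name the gene, stood at 7.61 ± 2.76 TPM (SD, n = 3) in A549 controls and fell with ASO3 to 0.650 ± 0.583 TPM, with 3.42 ± 1.21 TPM with ASO5 (not called). In NCI-H460 AC107959.3 fell from 1.75 ± 0.825 TPM (SD, n = 2) to 0.529 ± 0.0176 TPM with ASO3 and stood at 1.67 ± 0.300 TPM with ASO5. AC015712.6, taken here as candidate 240, was below 1 TPM in every library and was not tested. In A549 it averaged 0.347 TPM with the control, 0.185 TPM with ASO1 and 0.0154 TPM with ASO3, and in NCI-H460 0.0780, 0.0865 and 0.0465 TPM. The epithelial markers EPCAM, KRT8, KRT18, KRT19 and CDH1 summed to 4892 to 7895 TPM in A549 and 2645 to 4229 TPM in NCI-H460, with 5 of 5 and 3 of 5 at a mean of 1 TPM or more. The 6 alveolar type II markers summed to 13.2 to 17.9 TPM in A549 and 7.76 to 12.1 TPM in NCI-H460; of these ABCA3 alone reached a mean of 1 TPM, and SFTPA1 was listed at 0 in all 25 libraries. Leukocyte markers summed to 8.93 to 25.0 and 10.2 to 29.2 TPM (CD3E listed at 0 in all), fibroblast markers to 2.76 to 10.2 and 3.76 to 7.19 TPM, and endothelial markers to at most 0.802 TPM.

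Promoter sequence of 300 bases, from 250 bases before to 50 after a transcription start, was taken from RefSeq (GRCh38.p14). It matched 7 of the 10 members with 14 starts; BCL2L2, MCL1 and BIK are named only. Both strands were searched for the p53 half-site consensus, for CACGTG (the E-box bound by MYC and USF factors) and for TGTTTAC (a forkhead core). The half-site occurred in 6.63% of all 35116 promoters, CACGTG in 7.26% and TGTTTAC in 3.42%. Counted by gene, over 27305 genes, the shares were 8.06%, 8.77% and 4.19%. Among the 7 matched members the half-site was found for 1 gene, BAK1, CACGTG at BID and TGTTTAC at BCL2L11. The BAK1 promoter is shown because BAK1 lay above control with several ASOs, with the half-site in capitals. The first listed starts of BCL2L1 and BMF are shown because these genes differed most between the lines, and none of the 3 motifs was found in them. A match is a description of letters and not a site.

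BAK1, chr6:33580227-33580526, minus strand: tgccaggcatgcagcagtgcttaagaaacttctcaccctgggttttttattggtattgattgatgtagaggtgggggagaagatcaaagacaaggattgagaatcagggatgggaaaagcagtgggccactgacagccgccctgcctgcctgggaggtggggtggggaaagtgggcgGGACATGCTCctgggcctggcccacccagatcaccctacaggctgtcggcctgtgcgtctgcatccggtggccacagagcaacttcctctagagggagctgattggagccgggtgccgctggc
BCL2L1, chr20:31723914-31724213, minus strand: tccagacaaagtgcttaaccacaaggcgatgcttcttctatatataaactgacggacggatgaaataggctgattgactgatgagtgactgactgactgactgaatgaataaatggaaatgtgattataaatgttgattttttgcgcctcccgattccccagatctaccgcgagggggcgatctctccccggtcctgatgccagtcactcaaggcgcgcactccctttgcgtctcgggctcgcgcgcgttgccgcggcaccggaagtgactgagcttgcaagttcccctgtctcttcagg
BMF, chr15:40108830-40109129, minus strand: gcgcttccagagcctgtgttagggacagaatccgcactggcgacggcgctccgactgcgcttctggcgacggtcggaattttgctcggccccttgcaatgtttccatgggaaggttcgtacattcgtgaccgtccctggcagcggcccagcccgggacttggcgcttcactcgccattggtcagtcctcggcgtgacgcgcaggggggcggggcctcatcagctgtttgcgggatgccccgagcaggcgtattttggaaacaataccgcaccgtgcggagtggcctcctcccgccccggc

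With the control ASO the most abundant guardian transcript differed between the 2 lines. In A549 BCL2L1 was the most abundant member, at 140, 127 and 148 TPM, and in NCI-H460 it stood at 28.1 and 28.8 TPM. MCL1 led in NCI-H460, at 123 and 108 TPM, and stood at 60.4, 84.3 and 98.4 TPM in A549. The ratio of MCL1 to BCL2L1 was therefore 0.587 ± 0.134 (SD, n = 3) in A549 and 4.06 ± 0.453 (SD, n = 2) in NCI-H460, with no overlap between libraries. The 3 guardians together made up 53.4% of the members' summed TPM in both lines, with SDs of 7.28 and 1.37 percentage points. BCL2, the founding guardian, was itself low, at 0.301 to 0.877 TPM over all A549 libraries and 3.25 to 5.92 TPM in NCI-H460. BCL2A1, another guardian, ranged from 1.99 to 13.4 TPM in A549 and was listed at 0 in all NCI-H460 libraries.

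**Figure D1:**
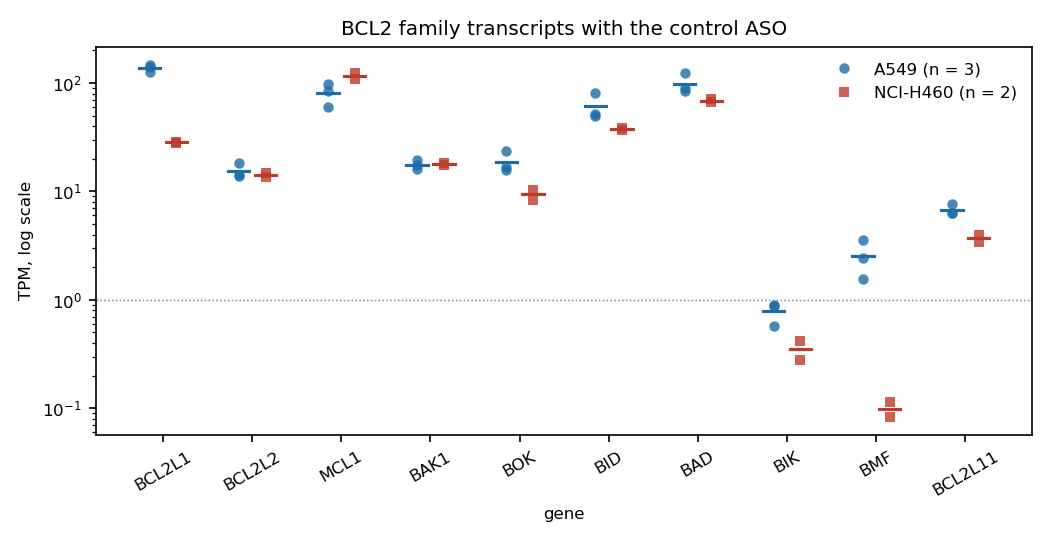
TPM (log axis) of the 10 members in each control ASO library of A549 (circles, n = 3) and NCI-H460 (squares, n = 2), with group means as bars and a dotted line at 1 TPM. BCL2L1 is higher in A549, BAK1 and BCL2L2 lie at like levels in both lines, and BMF is near 0 in NCI-H460.

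Below the leading guardian, BAD (which binds BCL-XL) followed in both lines, at 124, 89.2 and 83.8 TPM in A549 and 70.5 and 67.2 TPM in NCI-H460. BID, the link from death receptors to mitochondria, stood at 80.5, 52.1 and 49.8 TPM in A549 and 38.6 and 36.9 TPM in NCI-H460. BOK, an effector-like relative of BAK, reached 23.7, 15.6 and 16.9 TPM in A549 and 8.40 and 10.4 TPM in NCI-H460. In A549 the ranges of BAD and MCL1 overlapped, as did those of MCL1 and BID, BOK and BAK1, and BAK1 and BCL2L2. In NCI-H460 no 2 neighbours in the order of levels overlapped, with 2 libraries each. BCL2L11 was at 6.31 to 7.70 TPM in A549 and 3.42 to 3.96 TPM in NCI-H460. BMF, which senses loss of attachment, stood at 1.55, 2.42 and 3.59 TPM in A549 and at 0.0832 and 0.115 TPM in NCI-H460. BIK, a BH3-only protein of the endoplasmic reticulum, was the lowest member in A549, at 0.577, 0.881 and 0.893 TPM, and stood at 0.278 and 0.421 TPM in NCI-H460.

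After rescaling each library to a sum of 1e+06, 6 of 10 members were higher in A549 controls than in NCI-H460 controls and 0 were lower. Of all 14739 genes in that fit 52.3% were called, 33.1% higher in A549 and 19.2% lower, and the median of all genes was 0.17 on the log2 scale. BCL2L1 was 2.21 ± 0.09 (SE) higher on that scale (adjusted p = 4.88e-14), from rescaled means of 138 and 29.4 TPM. BMF differed by 2.27 ± 0.39 (adjusted p = 5.91e-05) and BOK by 0.90 ± 0.19 (adjusted p = 0.000614). BCL2L11 (0.76 ± 0.20), BID (0.60 ± 0.13) and BAD (0.45 ± 0.13) were the other members higher in A549. MCL1 went the other way by 0.58 ± 0.30 without passing (adjusted p = 0.118), with ranges that did not overlap. BAK1 and BCL2L2 differed by -0.06 (95% interval -0.26 to 0.14) and 0.08 (-0.36 to 0.51). After median-of-ratios scaling MCL1 was called lower in A549 (-0.71, adjusted p = 0.00929) and BAD was no longer called (0.32, adjusted p = 0.222). BIK, at 0.58 ± 0.24 and not called (adjusted p = 0.0563), was called higher in A549 with a pseudocount of 0.1 (0.94, adjusted p = 0.0404) and with no trend (0.0370). BIK was also called without A549 control replicate 3 (0.72, adjusted p = 0.0273), A549 42 ASO5 replicate 4 (0.0458), NCI-H460 240 ASO3 replicate 1 (0.0466) or NCI-H460 240 ASO3 replicate 2 (0.0464). MCL1 was also called lower without A549 240 ASO3 replicate 3 (adjusted p = 0.0379). The call of BAD was lost without NCI-H460 control replicate 2 (adjusted p = 0.0561), and that of BCL2L11 without NCI-H460 control replicate 1 (adjusted p = 0.0511).

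Each ASO group was compared with the control ASO of its line. The comparison is of ASOs and not of loss of a candidate RNA, since in NCI-H460 AC107959.3 with 42 ASO5 lay within the control's spread and AC015712.6 with 240 ASO1 averaged no less than with the control. A member that did not pass the test is not shown to be unchanged. Against the control in A549, 1 of 10 members was called with 42 ASO3 (10.1% of all genes called), 0 with 42 ASO5 (3.82%), 0 with 240 ASO1 (0%) and 1 with 240 ASO3 (13.8%); the called member was BIK, higher both times. These counts come from the fit without a replicate block; with the block, given further on, 240 ASO3 called 6 of 10. In NCI-H460, 3 of 8 were called with 42 ASO3 (46% of all genes), 0 with 42 ASO5 (0.508%), 0 with 240 ASO1 (0%) and 1 with 240 ASO3 (5.66%). These were BAK1 and BOK, higher, and BCL2L2, lower, with 42 ASO3, and BID, higher, with 240 ASO3. Between the ASOs of candidate 240 in NCI-H460, 0 of 8 were called (2.92% of all genes). At an unadjusted p under 0.05 there were 0 members with A549 42 ASO5 (16.4% of all genes at that threshold), 0 with 240 ASO1 in A549 (1.81%) and 0 with it in NCI-H460 (3.58%). There were 2 (BAK1 and BID) with NCI-H460 42 ASO5 (15.2%) and 3 between the candidate 240 ASOs in NCI-H460 (16.1%). The authors' deposited tables give no member a q-value under 0.05 with 42 ASO5 or 240 ASO1 in either line. Of all genes 5.56% had such a q-value with 42 ASO5 in A549. The share was 0% with 42 ASO5 in NCI-H460 and with 240 ASO1 in either line. Without the block the share of members called was near or below that of all genes except with 240 ASO3 in NCI-H460 (1 of 8), and no member was called with both ASOs of a candidate in 1 line. The 4 ASOs of a line were compared with the same control libraries, so their fold changes share the controls' error.

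**Figure D2:**
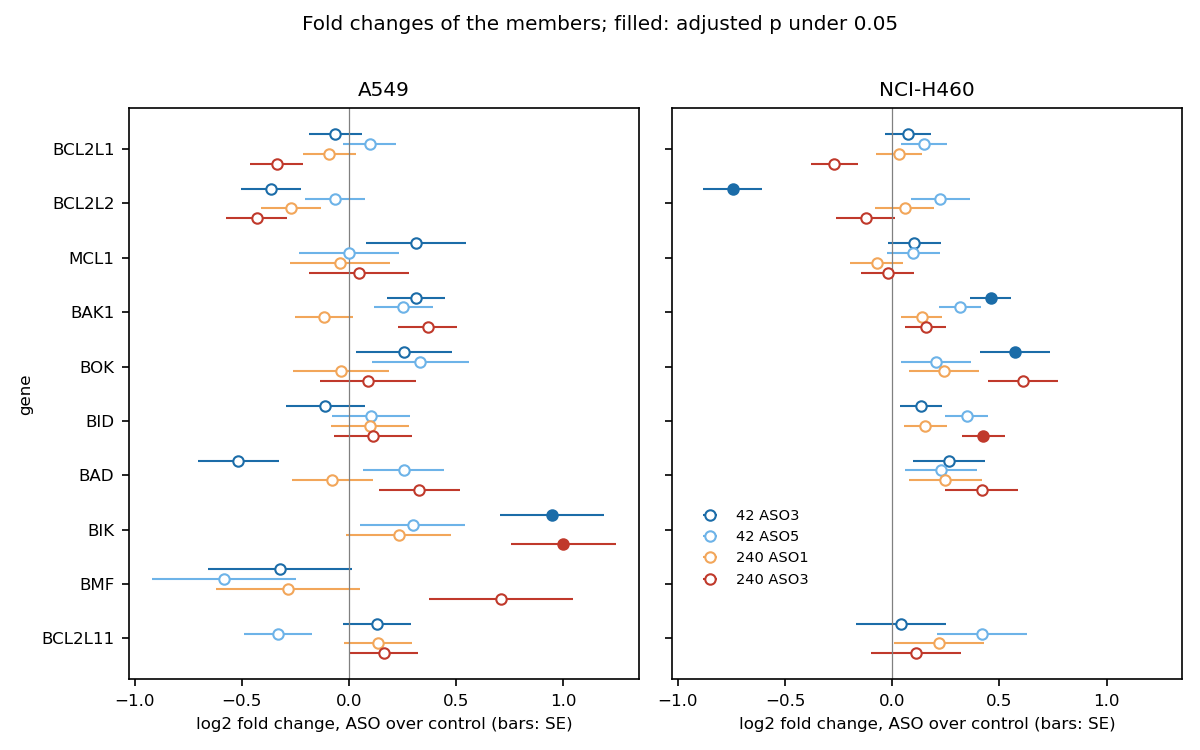
Log2 fold change of each member against control (x axis, bars are SE) with the 4 ASOs in A549 (left) and NCI-H460 (right); filled points passed an adjusted p of 0.05, and BIK and BMF were not tested in NCI-H460. The filled points are BIK in A549, BCL2L2, BAK1 and BOK with 42 ASO3 in NCI-H460, and BID with 240 ASO3 in NCI-H460.

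In NCI-H460 with 42 ASO3 46% of all genes were called, most of them lower, and the centring of the libraries bears on each member's value. As deposited, the median of all genes was -0.20 on the log2 scale, with 1819 genes higher and 4513 lower. At a sum of 1e+06 per library the median was -0.34 (1128 higher, 5104 lower), and after median-of-ratios scaling -0.02 (3108 higher, 3338 lower). The difference between 42 ASO5 and 42 ASO3 in that line carried a median of 0.21 as deposited, 0.30 at a sum of 1e+06 and 0.01 after median-of-ratios scaling. The members' median with 42 ASO3 was 0.12 over the 8 tested, against -0.20 for all genes.

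Among the guardians BCL2L2 moved most. In NCI-H460 it stood at 14.6 and 13.7 TPM with the control and 7.24 and 9.41 TPM with 42 ASO3, the lowest 2 values of the line. It read 17.4 and 15.9 TPM with 42 ASO5, 14.0 and 15.6 TPM with 240 ASO1 and 13.2 and 12.8 TPM with 240 ASO3. BCL2L2 fell by 0.74 ± 0.14 (SE) on the log2 scale with 42 ASO3 (adjusted p = 0.00291), beyond the shift of all genes, and by 0.56 after median-of-ratios scaling (adjusted p = 0.00884). It was 0.97 ± 0.14 higher with 42 ASO5 than with 42 ASO3 (adjusted p = 0.00168), the only one of 8 members called between these ASOs (33.3% of all genes), so the 2 ASOs against candidate 42 did not give the same level. Both results kept their call when any 1 of the 10 libraries was left out.

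In A549 BCL2L2 stood at 14.0, 14.3 and 18.3 TPM with the control, 10.3, 12.7 and 12.8 TPM with 42 ASO3 and 14.3, 15.3 and 14.5 TPM with 42 ASO5. With the candidate 240 ASOs it read 11.5, 13.9 and 12.8 TPM (ASO1) and 9.78, 13.1 and 11.2 TPM (ASO3). All libraries of 3 ASOs thus lay below every control library, as did 14.4% of all genes with 42 ASO3, 2.43% with 240 ASO1 and 13.2% with 240 ASO3, but the differences did not pass: -0.36 ± 0.14 with 42 ASO3 (adjusted p = 0.130) and -0.43 ± 0.14 with 240 ASO3 (adjusted p = 0.0585). The 240 ASO3 difference passed without control replicate 3 (-0.50, adjusted p = 0.0480) or 240 ASO3 replicate 4 (-0.54, adjusted p = 0.0377). BCL2L2 overlaps the readthrough gene BCL2L2-PABPN1 on chromosome 14, and how reads were split between them is uncertain. BCL2L2-PABPN1 also fell with 42 ASO3 in NCI-H460, from 16.6 ± 3.63 to 8.75 ± 1.47 TPM (-0.88 ± 0.21, adjusted p = 0.00910). In A549 BCL2L2-PABPN1 read 13.3 ± 3.22 TPM with the control and 11.7 ± 2.50 TPM with 42 ASO3 (SD, n = 3). It read 17.2 ± 1.10 TPM with 42 ASO5, 14.9 ± 2.68 TPM with 240 ASO1 and 15.7 ± 0.756 TPM with 240 ASO3, and was not called with any ASO. With both candidate 240 ASOs its mean thus lay above control, where BCL2L2 lay below. In NCI-H460 it read 13.9 ± 3.85 TPM with 42 ASO5, a mean below control, where BCL2L2 lay above. Whether reads were shared differently between the 2 genes was not tested.

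BCL2L1 kept close to its level with most ASOs. In A549 it read 144, 119 and 133 TPM with 42 ASO3, 154, 146 and 143 TPM with 42 ASO5, 132, 120 and 137 TPM with 240 ASO1, and 132, 92.4 and 106 TPM with 240 ASO3. In NCI-H460 it read 32.6 and 27.6 TPM, 33.5 and 29.8 TPM, 28.6 and 29.6 TPM, and 23.7 and 23.3 TPM in the same order. The candidate 240 ASO3 groups had the lowest mean of each line, 79.7% of control in A549 and 82.6% in NCI-H460. The differences were -0.34 ± 0.12 in A549 (adjusted p = 0.0873) and -0.27 ± 0.11 in NCI-H460 (adjusted p = 0.174), not called. The A549 value passed without 240 ASO3 replicate 3 (-0.47, adjusted p = 0.0101) and at a sum of 1e+06 per library (-0.35, adjusted p = 0.0166). Gene-level values do not separate the long and short splice forms of BCL2L1, which have opposite effects on cell death.

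MCL1 was called in no comparison of ASOs with all 5 groups of a line in the fit. The authors' deposited table gives it a q-value of 0.0439 with 42 ASO3 in NCI-H460 (49.3% of all genes there under 0.05). The MCL1 difference here was 0.10 ± 0.12 (adjusted p = 0.517). In A549 it read 94.3, 96.2 and 106 TPM with 42 ASO3, 75.4, 80.6 and 82.6 TPM with 42 ASO5, 58.1, 82.2 and 95.8 TPM with 240 ASO1 and 55.7, 101 and 98.1 TPM with 240 ASO3. In NCI-H460 it ranged from 108 to 136 TPM over all 10 libraries. Replicate 3 was the lowest MCL1 value in all 5 A549 groups. The 42 ASO3 difference in A549 was 0.31, and its 95% interval ran from -0.19 to 0.81 on the log2 scale. MCL1 was 0.31 lower with 42 ASO5 than with 42 ASO3 (difference -0.31, adjusted p = 0.465), which passed with only these 2 groups in the fit (adjusted p = 0.0458).

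**Figure D3:**
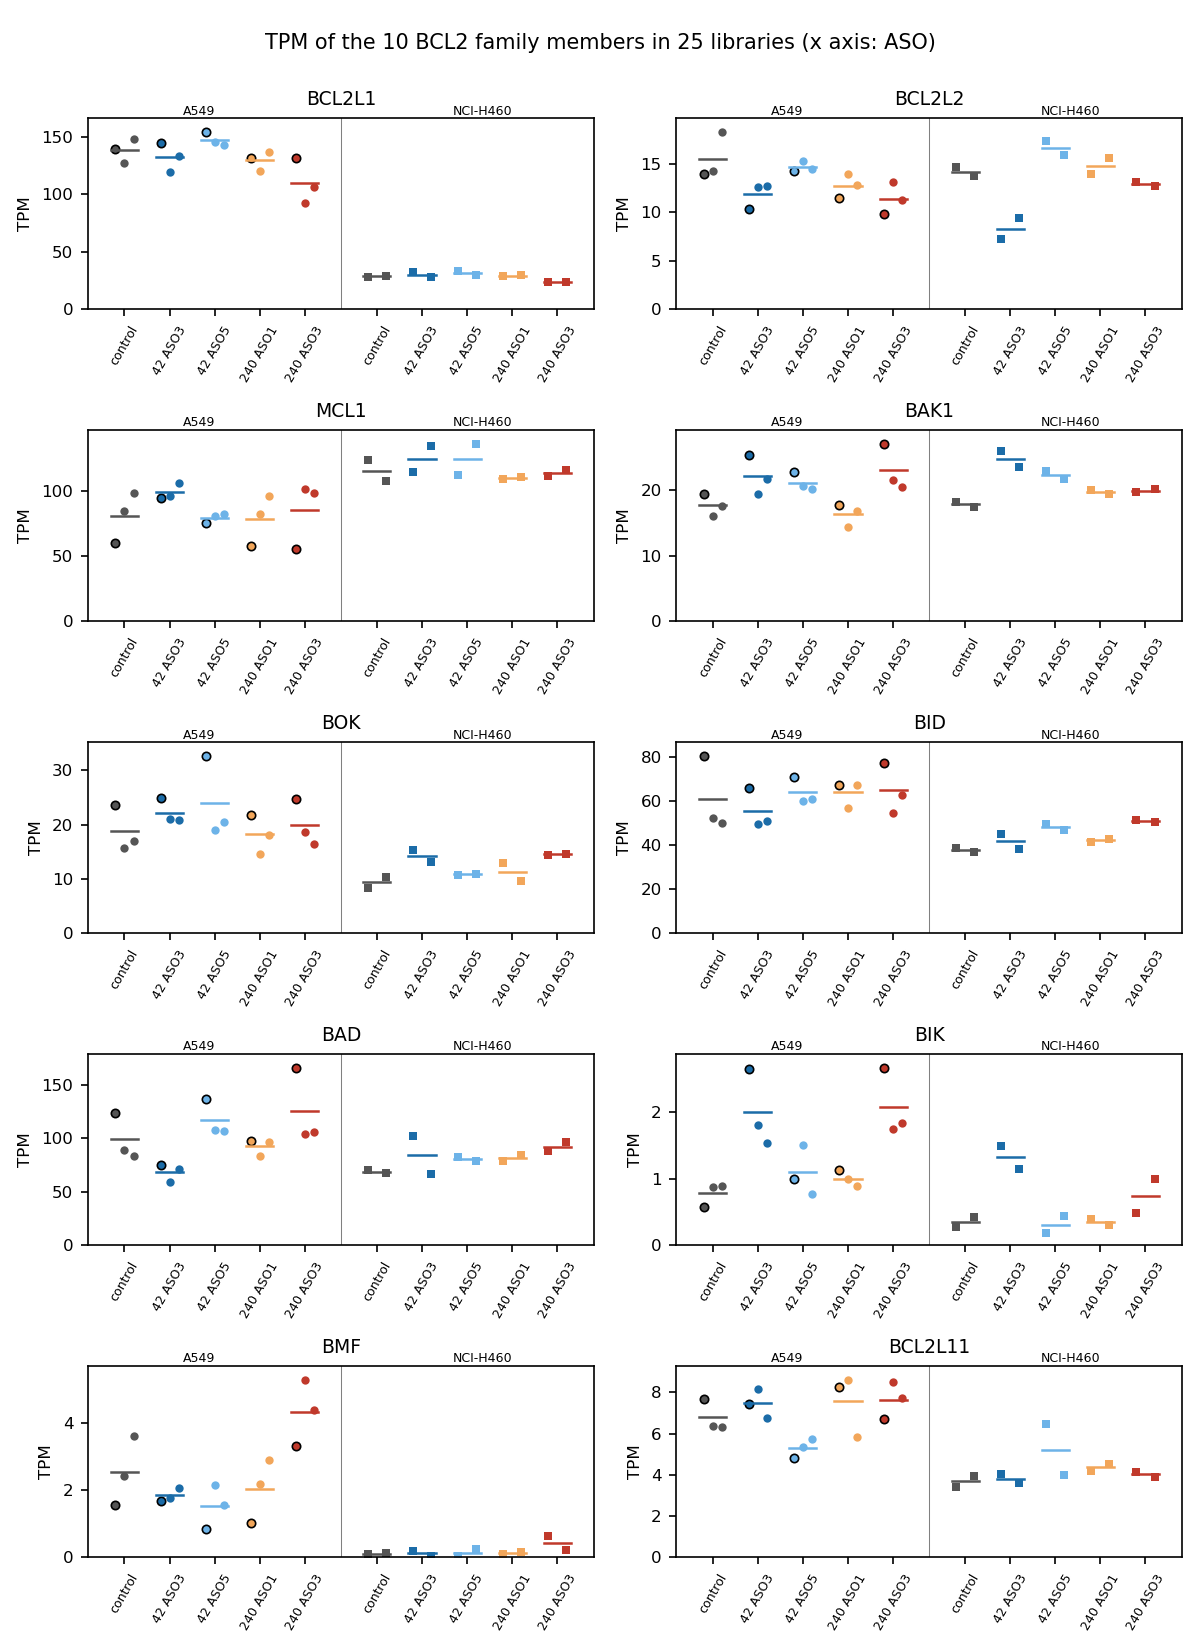
TPM of each member in all 25 libraries by ASO (x axis), A549 as circles on the left of each panel (replicate 3 outlined in black) and NCI-H460 as squares on the right, with group means as bars and y axes from 0. BCL2L2 is low with 42 ASO3 in NCI-H460, BIK is high with 42 ASO3 in both lines and with 240 ASO3 in A549, and replicate 3 is the highest A549 value of BAD, BID, BOK and BAK1 in each group.

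Of the effectors, BAK1 lay above every control library with 3 of 4 ASOs in A549 and with all 4 in NCI-H460. In NCI-H460 it read 18.2 and 17.5 TPM with the control, 26.0 and 23.5 TPM with 42 ASO3, 22.95 and 21.7 TPM with 42 ASO5, 19.97 and 19.4 TPM with 240 ASO1 and 19.8 and 20.1 TPM with 240 ASO3. In that line BAK1 rose by 0.46 ± 0.10 (SE) with 42 ASO3 (adjusted p = 0.00510), and by 0.65 after median-of-ratios scaling (adjusted p = 0.00165). The call held without each of the 10 libraries. With 42 ASO5 the difference was 0.32 ± 0.10 and not called (adjusted p = 0.182). With 2 libraries a group many genes lay above every control library: 25.7% of all genes with 42 ASO3, 29.1% with 42 ASO5, 22.1% with 240 ASO1 and 28% with 240 ASO3.

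In A549 BAK1 read 19.4, 16.1 and 17.6 TPM with the control, 25.4, 19.5 and 21.6 TPM with 42 ASO3, and 22.8, 20.6 and 20.1 TPM with 42 ASO5. With candidate 240 it read 17.7, 14.3 and 16.8 TPM (ASO1) and 27.1, 21.6 and 20.5 TPM (ASO3). Values with 42 ASO3, 42 ASO5 and 240 ASO3 all lay above every control, as did 13.3%, 11.6% and 12.2% of all genes. Against control the differences were 0.31, 0.25 and 0.37 (SE 0.14), with adjusted p of 0.180, 0.391 and 0.0947, and the last passed at a sum of 1e+06 per library (adjusted p = 0.0353). BAK1 was higher with 240 ASO3 than with 240 ASO1 by 0.48 ± 0.14 (adjusted p = 0.0268), 1 of 2 members called between these ASOs (16.7% of all genes). That call was lost without 240 ASO3 replicate 3 (adjusted p = 0.0878), 240 ASO1 replicate 4 (0.116) or 240 ASO1 replicate 5 (0.0582). The processed pseudogene BAK1P1 was at most 0.250 TPM in any library.

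BOK rose in NCI-H460 with 42 ASO3, from 8.40 and 10.4 TPM to 15.3 and 13.1 TPM (0.57 ± 0.16, adjusted p = 0.0192). With 240 ASO3 it read 14.5 and 14.6 TPM, a difference of 0.61 ± 0.16 that missed the threshold (adjusted p = 0.0622). It read 10.8 and 10.9 TPM with 42 ASO5 and 12.9 and 9.55 TPM with 240 ASO1. The 42 ASO3 call of BOK was lost without 42 ASO3 replicate 1 (adjusted p = 0.10), without control replicate 1 (0.128) and at a sum of 1e+06 per library (0.42, adjusted p = 0.0818). The 240 ASO3 difference passed when either or both 42 ASO3 libraries were left out of the fit (adjusted p of 0.0396 to 0.0402). In A549 BOK read 24.8, 21.0 and 20.8 TPM with 42 ASO3, 32.7, 19.0 and 20.5 TPM with 42 ASO5, 21.8, 14.6 and 18.1 TPM with 240 ASO1, and 24.8, 18.6 and 16.4 TPM with 240 ASO3. Every A549 group overlapped the control, and replicate 3 was the highest value in all 5. The antisense gene BOK-AS1 was at most 0.196 TPM in any library.

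Among the BH3-only genes BIK gave the largest fold changes of the called members against control, at low levels. In A549 it read 0.577, 0.881 and 0.893 TPM with the control, 2.65, 1.81 and 1.53 TPM with 42 ASO3 and 2.67, 1.74 and 1.83 TPM with 240 ASO3. All 6 of those ASO libraries lay above every control, as did 13.3% of all genes with 42 ASO3 and 12.2% with 240 ASO3. It read 1.00, 1.51 and 0.770 TPM with 42 ASO5 and 1.12, 0.993 and 0.884 TPM with 240 ASO1, which overlapped the control. BIK rose by 0.95 ± 0.24 (SE) with 42 ASO3 (adjusted p = 0.0238) and by 1.00 ± 0.24 with 240 ASO3 (adjusted p = 0.0137), and was 0.77 ± 0.24 higher with 240 ASO3 than with 240 ASO1 (adjusted p = 0.0451). The authors' deposited tables give BIK q-values of 0.0385 and 0.0307 for the first 2 (11.3% and 11.6% of all genes there under 0.05). Replicate 3 carried part of each difference. Without all 5 libraries numbered 3 the differences were 0.65, 0.72 and 0.67, with adjusted p of 0.127, 0.0843 and 0.103.

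The BIK call with 42 ASO3 was lost without 42 ASO3 replicate 3 (adjusted p = 0.0975), control replicate 3 (0.0812) or 42 ASO3 replicate 4 (0.0579), and the call with 240 ASO3 without 240 ASO3 replicate 3 (0.0517). The BIK call between the candidate 240 ASOs was lost when any of 11 of the 15 libraries was left out (adjusted p of 0.0505 to 0.148). BIK passed the filter of 1 TPM in A549 on a line mean of 1.39 TPM, while its control mean was 0.784 TPM. The line mean includes the 42 ASO3 and 240 ASO3 libraries, so the called groups helped BIK to enter the test. With a filter of 5 TPM BIK is not tested. Without a filter the 42 ASO3 call was lost (adjusted p = 0.0570), as was the call between the candidate 240 ASOs (0.0976). The 240 ASO3 call against control was kept there (adjusted p = 0.0340). In NCI-H460 BIK read 0.278 and 0.421 TPM with the control and 1.49 and 1.15 TPM with 42 ASO3, all above control, as were 25.7% of the genes tested there. It read 0.176 and 0.432 TPM with 42 ASO5, 0.390 and 0.304 TPM with 240 ASO1, and 0.482 and 1.00 TPM with 240 ASO3. Only the fit with no filter tested it there: the 42 ASO3 difference was 1.10 ± 0.30 (adjusted p = 0.0597). The authors' deposited table gives a q-value of 0.0259 (49.3% of all genes there under 0.05).

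BAD, which is silenced by survival kinases through phosphorylation, differed between the 2 ASOs against candidate 42 in A549. It read 124, 89.2 and 83.8 TPM with the control, 74.5, 59.3 and 71.0 TPM with 42 ASO3, and 137, 108 and 107 TPM with 42 ASO5. The 42 ASO3 libraries lay below every control, as did 14.4% of all genes, and below every 42 ASO5 library. BAD was 0.77 ± 0.19 (SE) higher with 42 ASO5 than with 42 ASO3 (adjusted p = 0.0179), the only member of 10 called there (10.7% of all genes). This call was lost without 42 ASO5 replicate 3 (0.66, adjusted p = 0.0796) or 42 ASO3 replicate 4 (0.67, adjusted p = 0.0795). Against control neither side passed: -0.52 ± 0.19 with 42 ASO3 (adjusted p = 0.107) and 0.26 ± 0.19 with 42 ASO5 (adjusted p = 0.576). The 42 ASO3 difference passed without 240 ASO3 replicate 3 (adjusted p = 0.0348), at a sum of 1e+06 per library (adjusted p = 0.0183), and without all libraries numbered 3 (-0.41, adjusted p = 0.0190).

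With candidate 240 BAD read 97.1, 83.8 and 96.8 TPM (ASO1) and 166, 104 and 106 TPM (ASO3) in A549. In NCI-H460 it read 70.5 and 67.2 TPM with the control, 103 and 66.8 TPM with 42 ASO3, 82.6 and 78.9 TPM with 42 ASO5, 79.1 and 84.6 TPM with 240 ASO1, and 88.0 and 96.4 TPM with 240 ASO3. The 42 ASO3 libraries of NCI-H460 stood on both sides of the control, and those of the other 3 ASOs lay above it. So did 29.1% of all genes with 42 ASO5, 22.1% with 240 ASO1 and 28% with 240 ASO3. The authors' deposited table gives BAD a q-value of 0.0466 with 240 ASO3 (6.91% of all genes there under 0.05). The difference here was 0.42 ± 0.17 (adjusted p = 0.178), and it passed when either or both 42 ASO3 libraries were left out of the fit (adjusted p of 0.0146 to 0.0149).

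BID rose in NCI-H460 with 240 ASO3, from 38.6 and 36.9 TPM to 51.3 and 50.5 TPM (0.43 ± 0.10, adjusted p = 0.0431). That call was lost when any of 8 of the 10 libraries was left out, all but the 42 ASO3 libraries (adjusted p of 0.0725 to 0.256). It was also lost at a sum of 1e+06 per library (0.33, adjusted p = 0.0724), with no trend (0.0771) and with no filter (0.0829). BID read 44.9 and 38.3 TPM with 42 ASO3, 49.7 and 46.7 TPM with 42 ASO5 and 41.5 and 42.7 TPM with 240 ASO1. The 42 ASO5 difference, 0.35 ± 0.10, was not called (adjusted p = 0.162). It passed when either or both 42 ASO3 libraries were left out (adjusted p of 0.0480 to 0.0493). The 42 ASO3 difference, 0.13 ± 0.10, was -0.02 at a sum of 1e+06 per library and was called at 0.32 after median-of-ratios scaling (adjusted p = 0.0324), so its direction rests on the scaling. The authors' deposited table gives that BID difference a q-value of 0.0343 (49.3% of all genes there under 0.05). In A549 BID read 65.8, 49.5 and 50.9 TPM with 42 ASO3, 70.8, 59.9 and 61.0 TPM with 42 ASO5, 67.3, 56.9 and 67.2 TPM with 240 ASO1 and 77.3, 54.5 and 62.6 TPM with 240 ASO3. All of these overlapped the control, which itself ran from 49.8 to 80.5 TPM.

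BMF was highest in A549 with 240 ASO3, at 3.30, 5.28 and 4.38 TPM, against 1.55, 2.42 and 3.59 TPM with the control. It read 1.68, 1.76 and 2.05 TPM with 42 ASO3, 0.838, 2.15 and 1.56 TPM with 42 ASO5, and 1.00, 2.18 and 2.88 TPM with 240 ASO1. The 240 ASO3 values overlapped the control by 1 library, and the difference of 0.71 ± 0.34 was not called (adjusted p = 0.196). They did not overlap 240 ASO1, and that difference was 0.99 ± 0.34 (adjusted p = 0.0587). It passed without control replicate 3 (adjusted p = 0.0450), 42 ASO5 replicate 3 (0.0475) or 240 ASO1 replicate 5 (1.24, adjusted p = 0.0414). In NCI-H460 BMF ran from 0.0221 to 0.620 TPM, with 0.620 and 0.200 TPM with 240 ASO3 the only group above both controls. Of the genes tested there 28% lay above both controls with 240 ASO3. In A549 the BMF value of replicate 3 was the lowest in all 5 groups.

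BCL2L11, whose protein BIM binds all guardians, read 7.70, 6.35 and 6.31 TPM in A549 controls and 4.79, 5.33 and 5.74 TPM with 42 ASO5, all below control, as were 10.6% of all genes. With 42 ASO3 it read 7.46, 8.17 and 6.77 TPM, with 240 ASO1 8.25, 8.62 and 5.82 TPM and with 240 ASO3 6.72, 8.49 and 7.75 TPM. In NCI-H460 it read 3.42 and 3.96 TPM with the control, 6.46 and 3.97 TPM with 42 ASO5, 4.02 and 3.59 TPM with 42 ASO3, 4.20 and 4.53 TPM with 240 ASO1 and 4.14 and 3.89 TPM with 240 ASO3. No difference of BCL2L11 against control passed: -0.33 ± 0.16 in A549 (adjusted p = 0.324) and 0.42 ± 0.21 in NCI-H460 (adjusted p = 0.388) with 42 ASO5.

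Same-numbered A549 libraries of candidate 240 ASO3 and the control deviated together, and so did those of 240 ASO3 and 240 ASO1, and of 42 ASO5 and 42 ASO3. A fit with the replicate number as a block, read beside these comparisons, called more members. With the block, 240 ASO3 against control called 6 of 10 members in place of 1, and 25.1% of all genes in place of 13.8%. BIK (1.00, adjusted p = 0.00886), BAK1 (0.37, adjusted p = 0.00704), BMF (0.71, adjusted p = 0.0339) and BAD (0.33, adjusted p = 0.04997) were higher. BCL2L1 (-0.34, adjusted p = 0.0129) and BCL2L2 (-0.43, adjusted p = 0.0117) were lower. The uncertain split of reads with BCL2L2-PABPN1 applies to this BCL2L2 value too. Each of these 6 members moved the same way in all 3 pairs. BIK, for example, differed by 1.56, 0.70 and 0.74 within replicates 3, 4 and 5, and BCL2L1 by -0.08, -0.46 and -0.47. The 6 were chosen by a fit that holds the same pairs, so this is no separate support. The share of all genes that moved alike in all pairs was not counted.

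**Figure D4:**
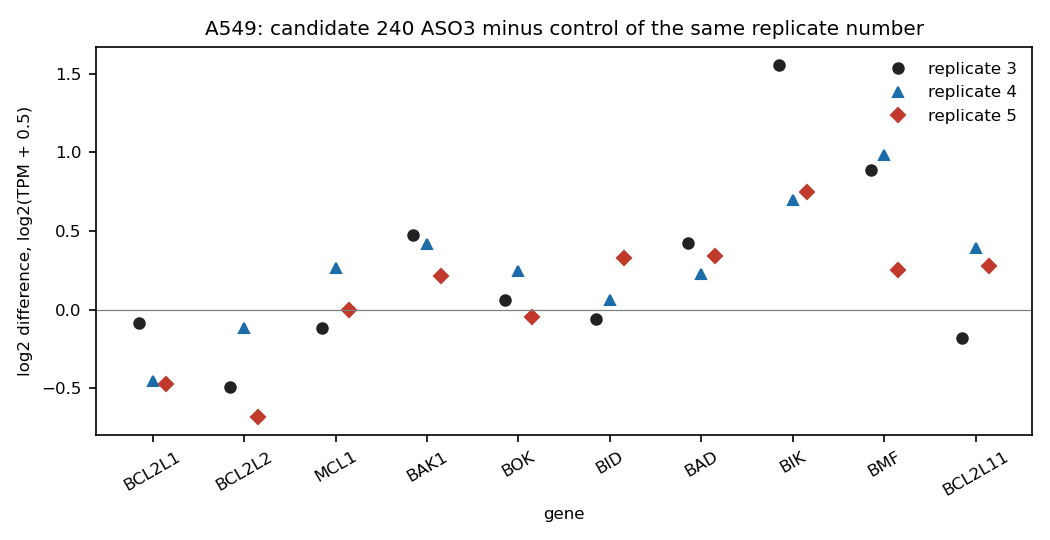
Difference in log2(TPM + 0.5) between 240 ASO3 and the control library of the same replicate number in A549 (y axis) for each member; circles, triangles and diamonds are replicates 3, 4 and 5. BAK1, BAD, BIK and BMF lie above 0 in all 3 pairs, and BCL2L1 and BCL2L2 below 0.

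Between the candidate 240 ASOs the block called 5 of 10 members in A549 in place of 2, and 29.9% of all genes in place of 16.7%. BMF was 0.99 higher with ASO3 (adjusted p = 0.00518), BAD 0.41 higher (adjusted p = 0.0170) and BCL2L1 lower (-0.25, adjusted p = 0.0479), beside BAK1 and BIK, which kept their calls with the replicate block. Between the candidate 42 ASOs it called 21.4% of all genes in place of 10.7%, and BCL2L11 beside BAD, lower with ASO5 than with ASO3 (-0.46, adjusted p = 0.0426). For 240 ASO1 against control, the fourth pair of groups whose numbers paired, no member and 0% of all genes were called with the block.

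Differences between the lines in the response to an ASO were tested over all 25 libraries. None of the 10 members was called with any of the 4 ASOs, against 19.7% of all genes with 42 ASO3, 0.0339% with 42 ASO5, 0% with 240 ASO1 and 1.21% with 240 ASO3. At an unadjusted p under 0.05 there were 1 member with 42 ASO3 (BAD; 37% of all genes at that threshold), 1 with 42 ASO5 (BCL2L11; 6.55%), 0 with 240 ASO1 (2.78%) and 0 with 240 ASO3 (11.1%). The response of BAD to 42 ASO3 was lower in A549 than in NCI-H460 by 0.78 ± 0.29 (difference -0.78, adjusted p = 0.0600). It passed with median-of-ratios scaling (-1.01, adjusted p = 0.0344), at a sum of 1e+06 (-0.63, adjusted p = 0.0388), with the filter of 5 TPM (adjusted p = 0.0490) and with the replicate block (adjusted p = 0.00815). It also passed without A549 240 ASO3 replicate 3 (adjusted p = 0.0232), A549 42 ASO3 replicate 3 (0.0497), A549 control replicate 5 (0.0395) or NCI-H460 42 ASO3 replicate 2 (-1.09, 0.0159). The response of BIK to 42 ASO3 differed by -0.15, with an interval from -0.92 to 0.61, and that of BAK1 by -0.15, from -0.53 to 0.24.

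Some pairs of members varied together or opposite ways across libraries. The pairs named here had the largest absolute r among the members tested in both lines. Other pairs changed sign between the lines, as BCL2L1 with BCL2L11 (r = -0.682 in A549 and 0.493 in NCI-H460). How common such r is among all gene pairs was not counted. After centring log2 values on each line, MCL1 and BAD ran opposite ways (r = -0.616 over 25 libraries), as did MCL1 and BID (r = -0.615), while BAD and BID (r = 0.746) and BAK1 and BOK (r = 0.653) ran together. Within A549 and NCI-H460 the values were -0.661 and -0.326 for MCL1 with BAD, -0.737 and -0.125 for MCL1 with BID, 0.752 and 0.760 for BAD with BID, and 0.709 and 0.538 for BAK1 with BOK. The points share the library, and in A549 replicate number moved with both genes: replicate 3 was the highest of its group in all 5 groups for BAD, BID, BOK and BAK1, and the lowest in all 5 for MCL1, BCL2L2 and BMF. On average replicate 3 lay 0.37 above the other replicates for BAD and 0.45 below for MCL1 (mean difference -0.45). The part of replicate 3 in the correlation was not tested.

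**Figure D5:**
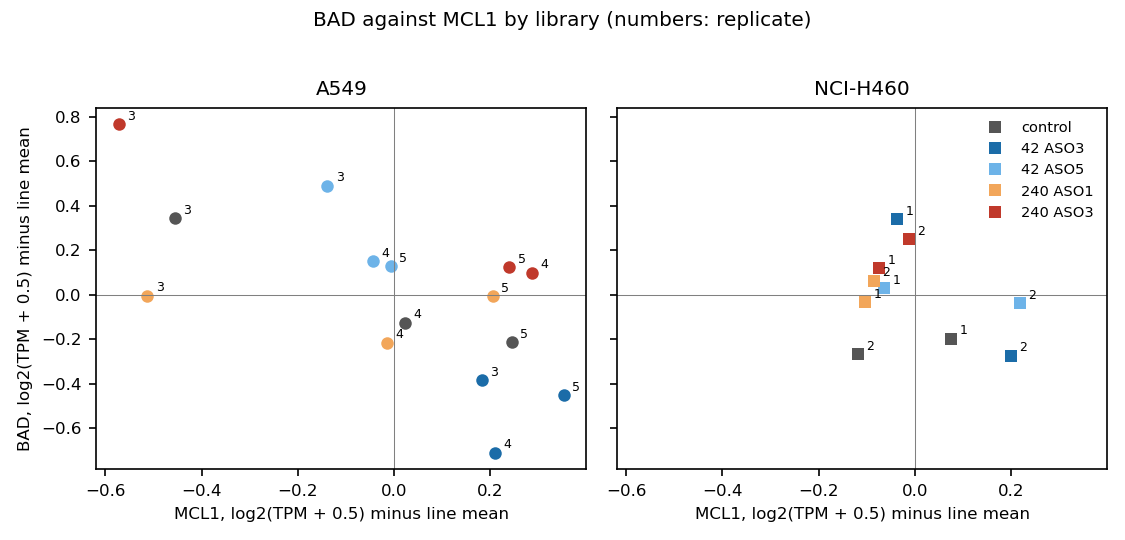
BAD against MCL1 in A549 (left) and NCI-H460 (right), both as log2(TPM + 0.5) minus the line's mean, coloured by ASO and numbered by replicate. In A549 3 of the 5 libraries numbered 3 lie at the far left with low MCL1, and the 3 libraries of 42 ASO3 lie at the lower right.

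Among the genes tested in both lines (12759), those with the most alike pattern over the 25 centred libraries were sought for BAD, BCL2L2 and BOK, which had the widest range of the 8 members tested in both lines. BIK and BMF, not tested in NCI-H460, were left out of that ranking. For BAD these were ECI1 (r = 0.967), BLVRB (0.958) and RRAS (0.937). For BCL2L2 they were BNC2 (0.883), GNAI1 (0.881) and ERLIN2 (0.880), and for BOK MRPS2 (0.861), GSK3A (0.846) and BTBD6 (0.843). Within A549 alone the r of BAD with ECI1 was 0.984 and within NCI-H460 0.899.

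Other genes of the apoptosis pathway give the surroundings of these members. Among 14 other BCL2 family genes, 3 of 9 tested rose and 5 fell in NCI-H460 with 42 ASO3, where 46% of all genes were called. BAX, the partner of BAK in pore formation, rose from 161 ± 6.70 to 259 ± 33.0 TPM (0.68 ± 0.13, adjusted p = 0.00352), and BBC3, which encodes PUMA, from 7.41 ± 0.255 to 16.1 ± 1.43 TPM (1.07 ± 0.15, adjusted p = 0.000969). Both also rose there with 240 ASO3, to 241 ± 14.8 TPM for BAX (adjusted p = 0.0391) and 14.8 ± 1.83 TPM for BBC3 (adjusted p = 0.0113). In A549 1 of 10 tested rose with 240 ASO3, BBC3, from 16.3 ± 3.95 to 31.7 ± 0.152 TPM (0.96 ± 0.15, adjusted p = 0.000740), and 1 of 10 rose with 42 ASO3, BNIP3. Of all genes in A549, 13.8% were called with 240 ASO3 and 10.1% with 42 ASO3, in either direction.

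Downstream of the mitochondria, 19 genes of the pore, the apoptosome, caspases and their inhibitors were followed. In A549 2 of 19 rose with 42 ASO3 and 0 fell (10.1% of all genes called, either direction). With 240 ASO3 1 rose and 2 fell (13.8% of all genes). CASP2, a caspase linked to DNA damage and to BID cleavage, fell from 12.9 ± 1.59 to 7.05 ± 1.49 TPM with 240 ASO3 (-0.84 ± 0.17, adjusted p = 0.00462). In NCI-H460 3 of 18 tested rose and 3 fell with 42 ASO3 (46% of all genes called). BIRC6, a large inhibitor of apoptosis, fell from 11.1 ± 0.142 to 5.89 ± 1.78 TPM (-0.89 ± 0.17, adjusted p = 0.00368). With 240 ASO3 1 of 18 rose, CASP9 (5.66% of all genes called).

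Of 10 genes in the death receptor arm that leads to BID cleavage, 2 rose and 4 fell in NCI-H460 with 42 ASO3 (46% of all genes called). FAS fell from 8.45 ± 0.327 to 4.48 ± 1.66 TPM (-0.89 ± 0.20, adjusted p = 0.00789) and TNFRSF10B, the TRAIL receptor DR5, from 87.5 ± 3.54 to 55.2 ± 1.39 TPM (-0.66 ± 0.08, adjusted p = 0.000579), while the adaptor TRADD rose (0.58 ± 0.16, adjusted p = 0.0168). In A549 1 of 10 fell with 42 ASO3 (TNFRSF1A, with 10.1% of all genes called) and 1 rose with 42 ASO5 (TNFRSF10A, with 3.82%). Of 15 regulators of the member proteins and transcripts, 0 of 14 tested rose and 5 fell in NCI-H460 with 42 ASO3 (46% of all genes called). USP9X, a deubiquitinase that stabilises MCL-1, fell from 17.8 ± 0.326 to 8.19 ± 1.25 TPM (-1.08 ± 0.14, adjusted p = 0.000558). BTRC and FBXW7, ubiquitin ligase subunits that act on MCL-1, fell by 0.90 and 0.85 (adjusted p = 0.00680 and 0.00868). In A549 BTRC was the 1 of 14 that fell with 240 ASO3 (-0.82 ± 0.18, adjusted p = 0.00702), where 13.8% of all genes were called. With 240 ASO1 0 genes of these 4 lists were called in either line (0% of all genes). All errors beside TPM in these 3 paragraphs are SDs with n = 3 in A549 and n = 2 in NCI-H460, and errors beside log2 differences are SEs.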

How the data were processed

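RNA-seq of 25 libraries was used. kallisto and sleuth 0.30 with genome build hg38 are named, per the submitters' processing notes; how strand was handled is not stated by any source here. The authors deposited a signal per gene name and library, a TPM value that had been rescaled between libraries. They also deposited 8 tables with log2 fold changes and q-values, per the file headers. Every test was run here in limma 3.58.1 (R 4.3.3) on log2(TPM + 0.5), keeping genes whose average across a line reached 1 TPM, with all 5 groups of a line in 1 linear model (eBayes with a trend, two-sided, Benjamini-Hochberg over all genes). Lines were compared over 25 libraries, at a sum of 1e+06 for levels and as deposited for responses. A call is an adjusted p under 0.05. The fit was tested on simulated data.

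All 10 members are named in every group. From each list of other apoptosis genes the text names the 3 called members with the largest log2 change over the 8 comparisons with control, others by count (BNIP3, CASP9, TNFRSF1A and TNFRSF10A are named outside that rule, after their values were seen; 1 gene that the rule picks is not reported here), and the 3 genes most alike to each of the 3 most variable of the 8 members tested in both lines. The members and lists were chosen with earlier results of these data known. Alternatives were other pseudocounts, filters, scalings, a fit without trend, a replicate block, only the compared groups, and leaving out libraries.

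Replicate numbers come from the labels, which do not say what they share. Same-numbered libraries deviated together, with every pair's correlation over 0.1, in A549 for 240 ASO1 and control (0.170 to 0.410), 240 ASO3 and control (0.283 to 0.564), 42 ASO5 and 42 ASO3 (0.128 to 0.411), and 240 ASO3 and 240 ASO1 (0.244 to 0.479).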

Additional observations from a re-analysis of the deposited data

Results flagged for a closer look

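The response of BCL2L11 to 42 ASO5 went opposite ways in the 2 lines. All 3 A549 libraries lay below every A549 control, as did 10.6% of all genes. Both NCI-H460 libraries lay above both NCI-H460 controls, as did 29.1% of all genes. The gene was flagged by this placing, so the placing is no separate support. The A549 response was lower than the NCI-H460 response by a difference of -0.75 ± 0.26 (SE) on the log2 scale, with an unadjusted p of 0.00956 and an adjusted p of 0.541 (limma interaction over 25 libraries), so the difference did not pass the correction. The 2 NCI-H460 libraries of 42 ASO5 read 6.46 and 3.97 TPM, and the higher control read 3.96 TPM.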

How the results depend on the processing

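Members were called 16 times in all, and 8 of these calls held under every planned setting in which they were tested, other than leaving out a library. The control groups of the lines were not compared with the replicate block or with only the compared groups. BMF was not tested there with a filter of 5 TPM. Calls of members against control in A549 numbered 2; they were 1 with no filter, 0 with a filter of 5 TPM, 5 at a sum of 1e+06, 0 with only the compared groups, and 1 to 3 with a library left out (1 without 42 ASO3 replicate 3 or 4). In NCI-H460 they numbered 4, against 2 with no filter, 2 at a sum of 1e+06, and 2 to 9 with a library left out, the highest without 42 ASO3 replicate 2 and the lowest without control replicate 1. Between ASOs of a candidate there were 3 in A549 (0 with no filter, 1 to 4 with a library left out) and 1 in NCI-H460 (2 at a sum of 1e+06, 3 with median-of-ratios scaling, 1 to 2 with a library left out). Between the control groups 6 were called, 5 to 7 with a library left out. For responses that differ between lines the count was 0, and 1 (BAD with 42 ASO3) with a filter of 5 TPM, at a sum of 1e+06, with median-of-ratios scaling, or omitting all A549 replicate 3 libraries (this and omitting both NCI-H460 42 ASO3 libraries were chosen after seeing the data); with a library left out it was 0 to 1. BID reversed in NCI-H460: with 42 ASO3 minus control it was -0.02 at a sum of 1e+06, and for 42 ASO5 minus 42 ASO3 it was -0.00 with median-of-ratios scaling. The share of all genes called under each of these settings is not set beside these counts. A count that moved is therefore not read as particular to the members. The cause of these changes was not tested.

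With the replicate block the counts were 10 against control and 7 between ASOs in A549, and 1 for responses between lines. Of all genes it called 21.1% with 42 ASO3 (10.1% without it), 10.4% with 42 ASO5 (3.82%), 0% with 240 ASO1 (0%) and 25.1% with 240 ASO3 (13.8%) against control, and 38.2% (19.7%) for the 42 ASO3 response between lines. Against control in A549 these include 42 ASO3, where numbers did not pair the libraries (correlations of 0.0897 to 0.391): BCL2L2 (-0.36, adjusted p = 0.0314), BAK1 (0.31, 0.0200) and BAD (-0.52, 0.00673) were called beside BIK. With 2 libraries a group, pairing by number was not judged in NCI-H460, where the correlations ran from -0.0156 to 0.195. The block changed no call in that line. TPM keeps no read number, so the depth behind BIK and BMF is unknown.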
